A study of Sus scrofa with 36 samples.

Results

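Ovariectomized pigs given estrogen were compared with pigs that kept their ovaries, to see what in the mammary gland still differed after estrogen replacement. The 8 arrays compared, 4 of 36 from group BE and 4 from the sham group, were chosen by their treatment labels, and all 20792 probe sets were tested. The animals were Yucatan miniature pigs, female and peripubertal, at 5 months of age, and each gave 1 array. In the sham group the ovaries stayed in place after a mock operation, and saline was given for 13 days. BE pigs lost their ovaries, received bromocriptine for 8 days and then bromocriptine with estrogen for 5 days. Groups set beside them had the same surgery: B received bromocriptine alone for 13 days, BEP received estrogen and progesterone with bromocriptine over the last 5 days, and HE received haloperidol and estrogen over those 5 days, after the same 8 days of bromocriptine. Each group held 4 pigs, and all received BrdU 24 hours before the end. BE and sham thus differ in the ovaries, in bromocriptine and in the source of estrogen, and these cannot be told apart in this comparison. The labels give no doses, no hormone levels and no cycle stage of the sham pigs, so whether the amount of estrogen differed is not known.

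The ovary supplies estrogen and progesterone to the gland, and the pituitary supplies prolactin. Estrogen acts through its receptor in part of the luminal epithelium, which answers with paracrine growth factors such as amphiregulin and with induction of the progesterone receptor, and ducts then grow. Progesterone drives side branching, and prolactin acts through JAK2 and STAT5 on alveolar growth and milk genes. Bromocriptine, a dopamine agonist, lowers prolactin secretion, and haloperidol, a dopamine antagonist, raises it.

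Levels are the deposited RMA values, read as log2, which ranged from 1.55 to 13.74, with array medians of 7.83 to 7.91. Differences are log2 differences of group means ± SE from limma, positive where the first named group is higher, and an adjusted p under 0.05 was called. Animals are named by group and the letter of their title. A gene is represented by its brightest probe set, which gave 6360 genes. Luminal keratin KRT19 had a mean level of 12.79 in sham and 12.29 in BE, and the mean level of 21 measured luminal markers was 9.32 to 9.82 in the sham animals and 9.16 to 9.74 in the BE animals. None of the lists for other cell types (adipocyte, fibroblast and matrix, endothelial, muscle, leukocyte, lymphocyte, skin, melanocyte, nerve, red cell) had a member called between BE and sham by limma. Their counts at an unadjusted p under 0.05 stood between 0 and 5 in either direction. Of all genes 6.34% were higher and 10.2% lower at that threshold. In bulk tissue, fewer cells of a type and less RNA per cell cannot be told apart.

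After estrogen replacement 34 of 6360 genes differed from the intact gland. In BE 14 genes were higher than in sham (0.220% of genes) and 20 were lower (0.314%). MCM5 was the only one of 40 cell division genes among them, and none of 24 estrogen targets was. The higher genes included OVGP1, CD55, PAQR7 and JAK2, and the lower genes included MCM5, SRM, SHMT1 and CKMT1A. Counting every probe set, 89 passed upward (0.428%) and 42 downward (0.202%), and 75 of these 131 had no gene symbol here. The median difference over all genes was -0.05. The 95% interval of the difference lay within 2-fold either way for 4297 genes (67.6%), so for the remaining genes a difference of that size was not shown to be absent. In B, without estrogen, 57 genes were called higher than in sham (0.896%) and 210 lower (3.30%). The gap between these counts depends on the threshold. At an unadjusted p under 0.05 by limma, 1052 genes differed in BE against sham and 1208 in B against sham. The median absolute difference was 0.265 in BE and 0.258 in B, and 66.7% of genes in B had intervals within 2-fold. Differences over 2-fold were fewer in BE (182 genes) than in B (405). The B group holds animal B A, whose skeletal muscle list stood at 12.59, against 5.45 to 6.35 in the other B animals. Its part in the B count was not tested. Both comparisons use the same sham animals.

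Which genes were called in BE against sham depended on the animals in the fit. When each of the 8 arrays was left out in turn, the 131 called probe sets became 7 to 383. Of the 34 genes, 0 were still called without sham D or BE B, 2 without BE A, 3 without sham A, 10 without BE D, 18 without sham B, 25 without sham C and 29 without BE C. None of the 34 changed sign in these 8 fits, and none of their differences moved by over 1.5 times. In 33 of the 34 the BE and sham animals did not overlap, so leaving out 1 animal could not turn the sign. The kept signs are thus no test of direction. A fit on the sham, B and BE arrays alone called 14 probe sets and a fit with array weights 3725.

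Of the genes called higher, OVGP1, an oviduct secretory glycoprotein, had the largest difference. Its level was 8.24, 7.61, 8.38 and 8.17 in the sham animals, 6.03, 6.93, 5.67 and 7.12 in B and 10.05, 10.54, 9.92 and 10.69 in BE. All BE animals lay above every sham animal, and all B animals lay below every sham animal. OVGP1 was thus 4.59-fold higher in BE than in sham (2.20 ± 0.46, adjusted p = 0.0241), where B was lower than sham (-1.66 ± 0.46, adjusted p = 0.0355). LRRC43, a leucine-rich repeat protein, was at 5.91, 5.35, 7.21 and 5.98 in sham and 7.49, 9.58, 7.77 and 7.29 in BE (1.92 ± 0.47, adjusted p = 0.0492). LRRC43 is dim: on average it ranks below the lower quartile of signals, so the size of that difference is uncertain. Its B animals were at 4.91, 5.15, 4.36 and 4.23. PAQR7, a membrane receptor for progestins, was at 8.29, 8.74, 8.99 and 8.07 in sham, 6.49, 7.83, 7.34 and 8.23 in B and 10.46, 10.58, 9.64 and 9.68 in BE. PAQR7 was 2.96-fold higher in BE than in sham (1.57 ± 0.30, adjusted p = 0.013) and lower in B than in sham (-1.05 ± 0.30, adjusted p = 0.0404). For all 3 genes the BE animals lay above the range of the intact gland, and the B animals of OVGP1 and LRRC43 lay below it.

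CD55, which protects cells from complement, was at 10.71, 10.50, 9.06 and 9.96 in sham and 11.79, 12.25, 11.35 and 11.55 in BE. It was 3.20-fold higher (1.68 ± 0.33, adjusted p = 0.0154), and B did not pass against sham (-0.28 ± 0.33, adjusted p = 0.701). CD55 has 4 further probe sets, which were dimmer and also higher in BE, and 3 of them were called. GSTA1, a glutathione transferase, was at 5.99, 5.75, 6.71 and 6.30 in sham and 7.14, 8.70, 7.67 and 6.76 in BE (1.38 ± 0.29, adjusted p = 0.0241). A second GSTA1 probe set of low signal differed more (4.25, adjusted p = 2.32e-05). Genes of this family are alike in sequence, and hybridization between them was not tested. GPD2, the mitochondrial glycerol 3-phosphate dehydrogenase, was at 8.61, 8.99, 9.00 and 7.58 in sham, 8.78, 8.74, 8.40 and 8.35 in B and 9.69, 10.60, 9.85 and 9.82 in BE (1.45 ± 0.31, adjusted p = 0.0241). The sham and B animals overlapped and the BE animals lay above both.

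Several signalling genes were also higher. JAK2, the kinase bound to the prolactin and growth hormone receptors, was at 6.97, 6.99, 5.40 and 6.87 in sham, 6.90, 7.09, 7.31 and 6.62 in B and 8.01, 8.51, 7.35 and 8.09 in BE (1.43 ± 0.34, adjusted p = 0.044). Sham C lay far below the other sham animals, and the other 3 also lay below every BE animal. Without sham C the difference was 1.05 and JAK2 was not called. A second JAK2 probe set differed by 1.03 and did not pass (adjusted p = 0.237). FRS2, an adaptor of the FGF receptors, was at 7.80, 7.81, 7.91 and 7.41 in sham, 8.16, 8.52, 8.44 and 8.26 in B and 8.70, 9.17, 9.08 and 9.05 in BE (1.27 ± 0.25, adjusted p = 0.0153). FRS2 kept its call in 6 of the 8 fits without 1 animal, more than any other called gene. SH3BP5, which binds and inhibits the kinase BTK, differed by 0.94 ± 0.20 and PDZD8, a protein of the endoplasmic reticulum membrane, by 1.17 ± 0.29. HSPA2, a member of the HSP70 heat shock family, differed by 1.49 ± 0.33 (adjusted p = 0.0296). LZIC (0.94 ± 0.23) and TMEM14A (0.82 ± 0.20) were also higher. In 13 of the 14, every BE animal lay above every sham animal, where 3.49% of all genes had that pattern. TMEM14A was the exception. The genes were called from these same animals, so the pattern follows largely from the calls and adds no support to them.

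**Figure D1:**
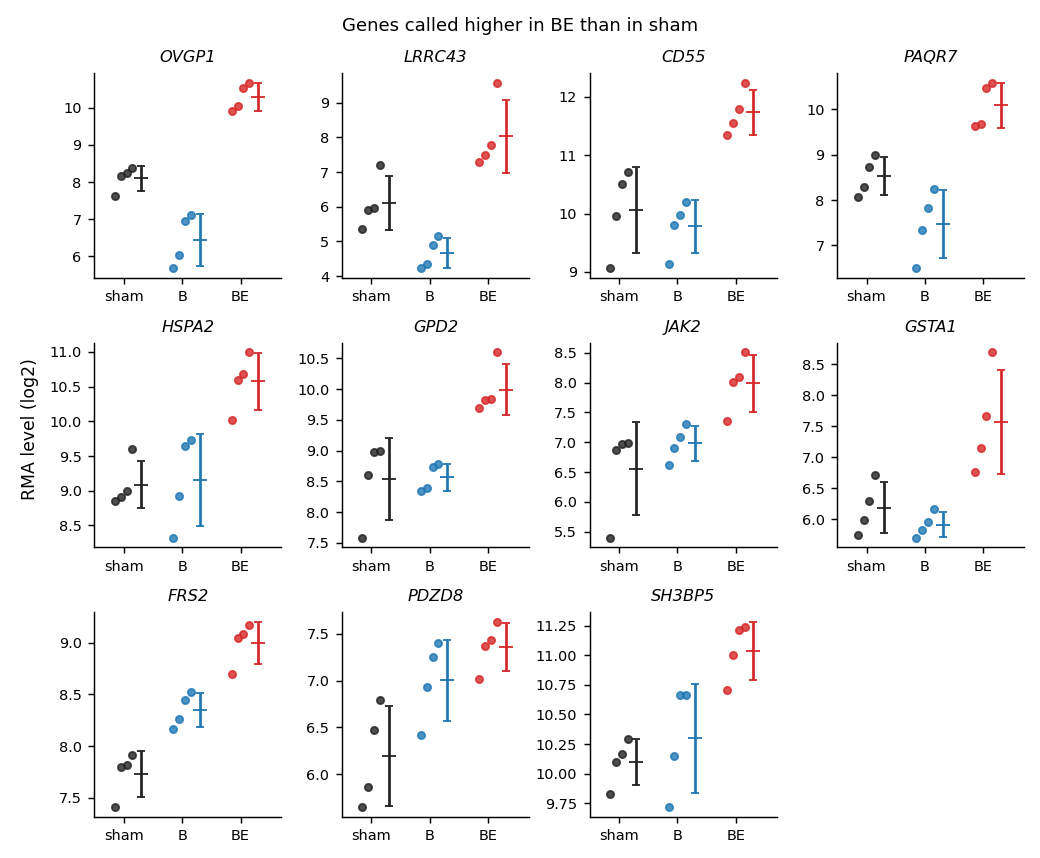
RMA level (log2) of 11 of the 12 genes with the largest increase among those called higher in BE than in sham, for the 4 animals of sham, B and BE. Points are animals, the dash and bar beside them are mean and SD, and each panel has its own axis. In OVGP1 the BE animals lie between 9.92 and 10.69 and the sham animals between 7.61 and 8.38.

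Among the 20 genes called lower in BE, 3 act in DNA replication and repair. MCM5, a subunit of the helicase that opens DNA for replication, was at 10.70, 10.42, 10.22 and 10.96 in sham, 7.54, 8.67, 7.89 and 8.99 in B and 8.91, 8.34, 9.32 and 9.36 in BE. Every BE animal lay below every sham animal, a 3.02-fold lower level (-1.59 ± 0.32, adjusted p = 0.0186). A second MCM5 probe set differed by -0.67 and did not pass (adjusted p = 0.339). MCM5 in BE did not pass against B (0.71 ± 0.32, adjusted p = 0.246). FANCA, of the Fanconi anaemia DNA repair complex, was at 8.22, 8.38, 7.49 and 8.40 in sham, 5.32, 6.09, 5.75 and 6.29 in B and 7.05, 6.78, 7.07 and 7.24 in BE (-1.09 ± 0.25, adjusted p = 0.0409). It was lower still in B (-2.26 ± 0.25 against sham, adjusted p = 5.8e-06) and higher in BE than in B (1.17 ± 0.25, adjusted p = 0.00455), so BE animals lay between B and sham. DDX11, a DNA helicase of sister chromatid cohesion, differed by -1.22 ± 0.29 (adjusted p = 0.0422).

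Proteins that make or process ribosomal and other RNA form a further 3. LYAR, a nucleolar protein, was at 9.37, 9.42, 9.08 and 9.41 in sham, 8.26, 8.47, 8.36 and 8.29 in B and 8.46, 7.92, 8.48 and 8.00 in BE (-1.11 ± 0.24, adjusted p = 0.0275). The B and BE animals overlapped and all lay below the sham animals. PDCD11, which acts in ribosomal RNA maturation, differed by -1.12 ± 0.27 (adjusted p = 0.0448), and EXOSC5, a subunit of the RNA exosome, by -1.18 ± 0.28 (adjusted p = 0.043). LYAR has 1 other probe set (-0.30, adjusted p = 0.752) and PDCD11 has 2 (-0.44 and -0.17), none of which passed. Because of these genes, a list of 93 genes of ribosome assembly was drawn up after the calls were seen. Of its 66 measured members these 3 were called lower and 0 higher by limma, where 0.314% of all genes were lower. At an unadjusted p under 0.05, 21 members were lower and 1 higher, against 10.2% and 6.34% of all genes. The median difference was -0.29, against -0.05 over all genes, and 50 of 66 were negative, against 55.1% of all genes. MRTO4 (-0.72), FBL, or fibrillarin (-0.73), and DKC1, or dyskerin (-0.80), did not pass (adjusted p = 0.0616, 0.0829 and 0.163). The mean level of the 66 genes was 9.15, 9.08, 8.96 and 9.08 in sham, 8.89, 8.91, 8.72 and 8.95 in B and 8.88, 8.73, 8.74 and 8.67 in BE, so all BE animals lay below all sham animals. Since the list was drawn from the calls, it is a description only.

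Several enzymes of metabolism were lower. SRM, spermidine synthase, was at 9.91, 9.83, 9.65 and 10.57 in sham, 8.73, 8.70, 8.15 and 9.55 in B and 8.49, 8.41, 8.68 and 8.77 in BE. SRM was 2.64-fold lower in BE than in sham (-1.40 ± 0.33, adjusted p = 0.0422) and did not pass between BE and B (-0.19 ± 0.33, adjusted p = 0.831). SHMT1, the cytosolic serine hydroxymethyltransferase of the folate cycle, was at 7.15, 7.12, 7.91 and 7.67 in sham, 7.46, 8.47, 7.93 and 7.78 in B and 6.77, 6.33, 6.09 and 6.63 in BE. SHMT1 was lower in BE than in sham (-1.01 ± 0.22, adjusted p = 0.0323) and than in B (-1.45 ± 0.22, adjusted p = 0.000162), while B did not pass against sham (0.45 ± 0.22). A second SHMT1 probe set differed by -0.57 between BE and sham and did not pass (adjusted p = 0.333). CKMT1A, a mitochondrial creatine kinase, showed the same order of group means as SHMT1. Its level was 7.86, 7.28, 7.87 and 8.31 in sham, 6.83, 8.01, 8.39 and 9.17 in B and 5.79, 6.51, 6.28 and 5.88 in BE (-1.71 ± 0.40 against sham, adjusted p = 0.0422). SCLY, or selenocysteine lyase, differed by -1.17 ± 0.23 (adjusted p = 0.0167). PMPCA, of the mitochondrial processing peptidase, differed by -0.93 ± 0.22, and CIAPIN1, of cytosolic iron-sulfur cluster assembly, by -0.81 ± 0.19.

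RAP1GAP, which switches off the GTPase RAP1, had the largest decrease. It was at 8.26, 7.47, 7.42 and 8.88 in sham, 5.88, 7.17, 7.55 and 9.19 in B and 5.23, 5.04, 5.61 and 5.79 in BE, a 6.02-fold lower level than in sham (-2.59 ± 0.49, adjusted p = 0.0119). The B animals spread over the sham range and beyond it on both sides, and every BE animal lay below all of them. CD93, a surface glycoprotein of endothelial and myeloid cells, was at 10.33, 10.52, 10.41 and 10.59 in sham and 8.44, 8.93, 9.05 and 9.33 in BE (-1.52 ± 0.35, adjusted p = 0.0409). The 18 measured endothelial markers had a mean level of 8.75 to 9.37 in the sham animals and 8.77 to 9.13 in BE, with a median difference of -0.08. Of them 0 were called by limma and 1 was lower at an unadjusted p under 0.05, where 10.2% of all genes were. The part of endothelial cells in the CD93 value was not tested. TTYH2, a membrane protein of the tweety family, differed by -1.45 ± 0.30 (adjusted p = 0.0238), PIM2, a serine/threonine kinase, by -1.03 ± 0.22 and ASB13, a ubiquitin ligase adaptor, by -1.11 ± 0.26. NKIRAS2 (-0.87 ± 0.20), CCDC167 (-0.91 ± 0.22) and GIF, or intrinsic factor (-1.74 ± 0.38), were the others. GIF was dimmer than LRRC43, with a mean of 3.41 over all arrays against 5.21, so its size is uncertain too. In all 20 genes every BE animal lay below every sham animal, where 7.25% of all genes had that pattern. That too follows largely from calling the genes in these same animals.

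**Figure D2:**
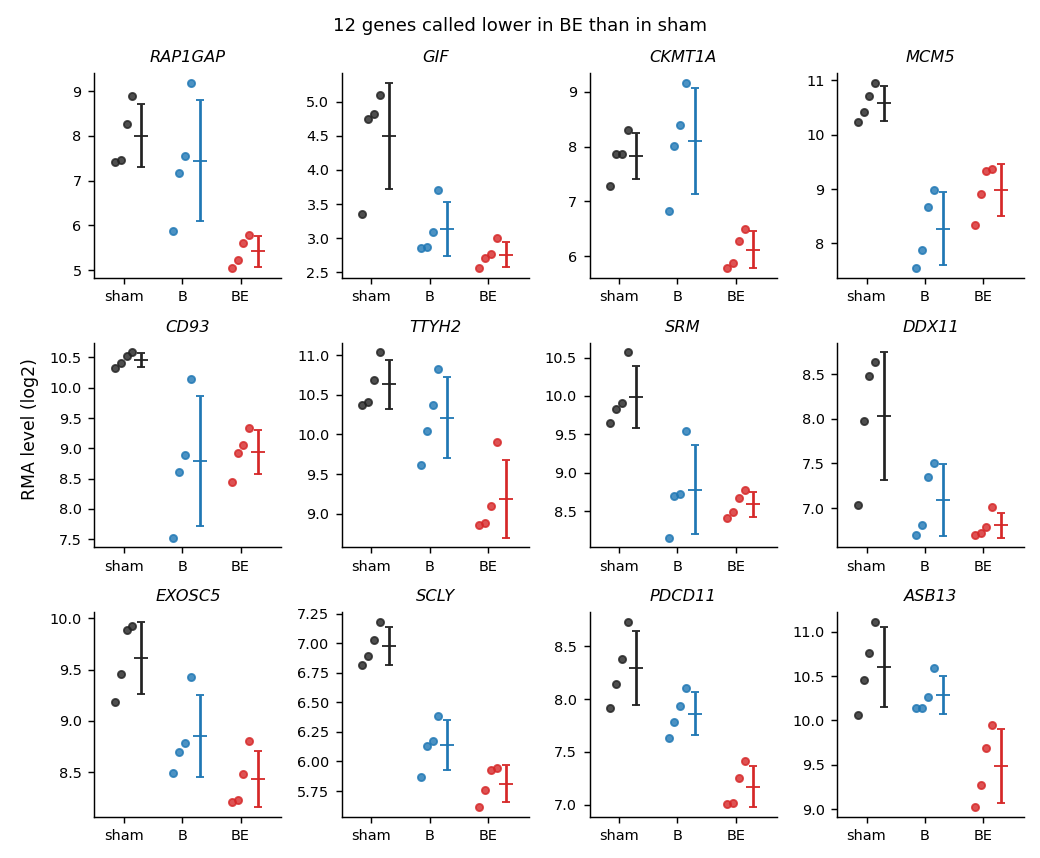
RMA level (log2) of the 12 genes with the largest decrease among those called lower in BE than in sham, for the 4 animals of sham, B and BE. Points are animals, the dash and bar beside them are mean and SD, and each panel has its own axis. In MCM5 the BE animals lie between 8.34 and 9.36 and the sham animals between 10.22 and 10.96.

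Cell division genes, which were lower in B than in sham, stood close to sham in BE on median. Of 40 measured members 1 was called lower (MCM5) and 0 higher. At an unadjusted p under 0.05, 4 were lower, where 10.2% of all genes were. The median difference was 0.05, or -0.12 without sham A. In B against sham 30 of the 40 were lower (3.30% of all genes were) and 0 higher, with a median of -1.71. In BE against B 28 were higher (3.02% of all genes were) and 0 lower, with a median of 1.62. TOP2A, DNA topoisomerase 2 alpha, was at 9.61, 10.71, 10.05 and 10.05 in sham, 7.01, 8.27, 6.41 and 4.89 in B and 10.38, 10.28, 9.97 and 10.13 in BE. Its BE animals lay inside the sham range, with a difference of 0.09 ± 0.64 and a 95% interval of -1.23 to 1.40. CCNB1, cyclin B1, was at 8.64, 9.98, 9.67 and 8.95 in sham and 9.85, 9.31, 9.43 and 9.35 in BE (0.17 ± 0.68, interval -1.20 to 1.55). Intervals of this width leave room for a 2-fold difference in either direction, and only 14 of the 40 lay within 2-fold.

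The 5 most negative members of the list were MCM5, MCM2, RRM2, CDC45 and RFC3, singled out after their values were seen, which act in DNA replication or the supply of its nucleotides. MCM2, of the same helicase as MCM5, differed by -0.94 ± 0.37 (adjusted p = 0.212) and CDC45, which joins that helicase, by -0.86 ± 0.25 (adjusted p = 0.0885). MCM3 differed by 0.25 ± 0.35 and MCM4 by -0.55 ± 0.35, so the 4 measured MCM subunits did not share a sign. RRM2, a subunit of ribonucleotide reductase, was at 9.13, 10.33, 9.92 and 9.65 in sham, 6.16, 7.31, 5.15 and 5.25 in B and 9.01, 7.94, 9.56 and 9.00 in BE (-0.88 ± 0.57, adjusted p = 0.463). The BE animals of RRM2 overlapped the sham range at its low end and lay above every B animal. CENPF, a kinetochore protein, had the most positive difference (0.69 ± 0.62, adjusted p = 0.612).

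**Figure D3:**
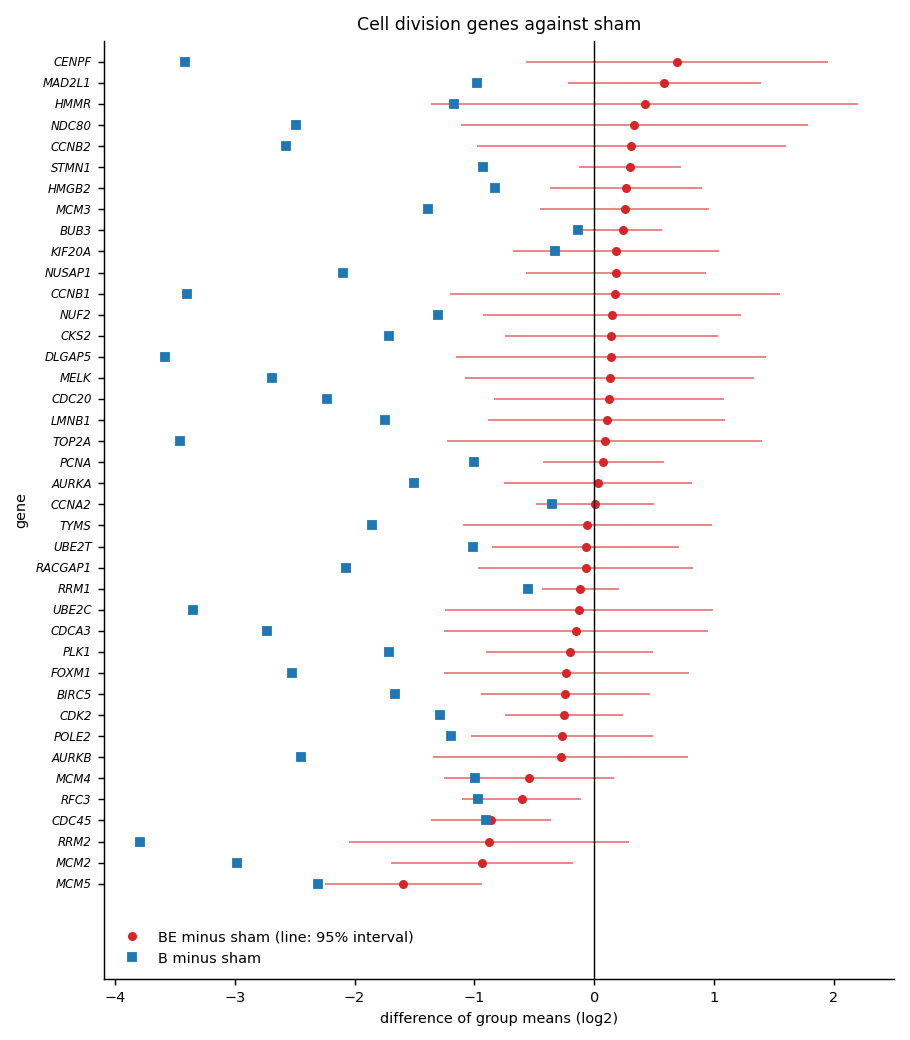
Difference from sham (log2) of the 40 measured cell division genes, for BE with its 95% interval (circles, lines) and for B (squares). The BE values lie between -1.59 and 0.69 and the B values between -3.79 and -0.14, and both use the same 4 sham animals.

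Among 24 measured estrogen targets 14 had a BE mean above sham and 10 below, and 0 were called by limma. At an unadjusted p under 0.05, 5 were higher and 0 lower, where 6.34% of all genes were higher and 10.2% lower. The genes named below were chosen for report whatever their result, and not all of them are on the estrogen target list. AREG, the EGF receptor ligand amphiregulin, was at 11.15, 11.24, 10.24 and 11.02 in sham, 5.99, 8.25, 6.44 and 7.18 in B and 10.68, 11.52, 10.74 and 10.42 in BE. The BE and sham animals overlapped (-0.07 ± 0.54, interval -1.18 to 1.04), and BE was higher than B (3.88 ± 0.54, adjusted p = 4.45e-05). PTHLH, the parathyroid hormone-like hormone (0.04 ± 0.36, interval -0.69 to 0.78), and LOXL1, a cross-linking enzyme of elastin (0.04 ± 0.21, interval -0.40 to 0.47), had intervals within 2-fold of sham. PGR, the progesterone receptor, was at 7.84, 8.19, 7.66 and 6.71 in sham, 5.15, 6.49, 5.21 and 4.10 in B and 9.33, 10.06, 8.52 and 9.01 in BE. All BE animals lay above every sham animal, yet the difference did not pass (1.63 ± 0.53, unadjusted p = 0.00424, adjusted p = 0.127). HSD11B2, which inactivates cortisol, was at 7.45, 8.04, 8.71 and 6.72 in sham and 8.91, 9.21, 10.49 and 9.56 in BE (1.81 ± 0.52, adjusted p = 0.088), again with no overlap and no call. HAPLN1, which links hyaluronan to proteoglycans, is on the matrix list and not among the 24 estrogen targets. It was at 9.23, 9.20, 7.75 and 9.27 in sham, 3.56, 4.49, 3.59 and 3.96 in B and 9.80, 10.47, 9.30 and 9.86 in BE. It was higher in BE than in B (5.96 ± 0.69, adjusted p = 4.01e-06) and did not pass against sham (1.00 ± 0.69, adjusted p = 0.492).

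The median difference of the estrogen targets was 0.36, and -0.068 when probe sets in the dimmer part of the array were left out, so their list has no settled direction. SULT1E1, the estrogen sulfotransferase, was at 3.56, 2.96, 2.30 and 3.41 in sham, 2.99, 5.00, 4.55 and 6.29 in B and 5.54, 4.59, 4.84 and 7.28 in BE (2.50 ± 0.85, adjusted p = 0.149), a low signal in all 3 groups. OXTR, the oxytocin receptor, differed by 0.83 ± 0.50 (adjusted p = 0.425), and TNC, tenascin C, by 0.22 ± 0.50 (interval -0.80 to 1.25). ESR1, which encodes estrogen receptor alpha, was dim, and its difference of 0.53 ± 0.33 did not pass (adjusted p = 0.445). TFF3, a secreted trefoil peptide, was at 9.91, 7.44, 8.18 and 9.38 in sham and 7.13, 7.35, 8.69 and 7.66 in BE (-1.02 ± 0.59, adjusted p = 0.402). STC1, stanniocalcin 1, and FZD5 are not on the estrogen target list. STC1 was at 10.62, 9.02, 9.26 and 10.56 in sham, 9.94, 10.78, 11.46 and 11.44 in B and 8.47, 8.45, 9.29 and 8.10 in BE. STC1 was lower in BE than in B (-2.33 ± 0.59, adjusted p = 0.0194), and BE did not pass against sham (-1.29 ± 0.59, adjusted p = 0.285). FZD5, a WNT receptor that was higher in B than in sham (2.06 ± 0.42, adjusted p = 0.00388), did not pass in BE (1.11 ± 0.42, adjusted p = 0.199), also at a low signal.

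Of 16 measured progesterone targets 0 were called by limma, with a median difference of 0.12. At an unadjusted p under 0.05, 1 was higher and 0 lower, where 6.34% of all genes were higher and 10.2% lower. The genes that follow were chosen for report whatever their result, and PHGDH, DEFB1, CSN1S2 and GHR are not among the 16. PHGDH, the first enzyme of serine synthesis, was at 7.95, 8.30, 8.18 and 7.81 in sham and 8.10, 7.76, 7.82 and 8.07 in BE (-0.12 ± 0.26, interval -0.65 to 0.40). DEFB1, beta-defensin 1, was at 9.11, 8.42, 8.51 and 8.00 in sham and 8.16, 7.75, 8.21 and 8.08 in BE (-0.46 ± 0.50, interval -1.47 to 0.56). Both overlapped between the groups. CSN1S2, another casein, did not pass in BE against sham (0.41 ± 1.69, adjusted p = 0.929). IGF1, insulin-like growth factor 1, did not pass in BE against sham (0.42 ± 0.27, adjusted p = 0.453). GHR, the growth hormone receptor, did not pass in BE against sham (0.66 ± 0.48, adjusted p = 0.519).

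Milk protein genes spread widely in BE, and none passed against sham. CSN2, beta-casein, was at 10.79, 10.30, 10.88 and 10.98 in sham and 9.96, 9.01, 11.08 and 6.06 in BE, with B at 4.16, 11.58, 2.25 and 6.0. The sham animals lay close together, the BE animals spread from 6.06 to 11.08, and the B range held both groups (-1.71 ± 1.36, interval -4.49 to 1.07). Without BE D the difference was -0.72. CSN1S1 and CSN3, further caseins, differed by -1.83 ± 1.30 and -2.02 ± 1.46, WAP, a whey protein, by -0.98 ± 1.51 and LALBA, alpha-lactalbumin, by -0.51 ± 1.91, none of which passed. Of 26 milk genes 0 were called by limma, with a median of -0.41. At an unadjusted p under 0.05, 2 were higher and 2 lower, where 6.34% of all genes were higher and 10.2% lower. SLC34A2, a phosphate transporter of secretory epithelium, was at 7.94, 6.96, 8.31 and 7.63 in sham and 5.13, 4.71, 5.79 and 5.31 in BE. Its BE animals all lay below the sham animals without a call (-2.48 ± 0.83, unadjusted p = 0.00541, adjusted p = 0.14). PAEP, the whey protein beta-lactoglobulin, had mean levels of 12.60 in sham, 9.73 in B and 10.23 in BE (-2.37 ± 0.79, adjusted p = 0.137). STAT5A (-0.13 ± 0.30, interval -0.74 to 0.47) and STAT5B (-0.31 ± 0.34, interval -1.0 to 0.38), which carry the prolactin signal to the nucleus, did not pass. JAK2 was the only called gene of the 16 measured on the prolactin list.

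Other compartments showed no member past the test by limma. At an unadjusted p under 0.05, 6.34% of all genes were higher and 10.2% lower, to be set beside the counts below. The 15 adipocyte markers had a median difference of 0.32, with 1 higher at an unadjusted p under 0.05. ADIPOQ, adiponectin, was at 7.21, 8.35, 6.69 and 5.93 in sham and 7.38, 7.47, 7.60 and 7.92 in BE (0.55 ± 0.58), and CFD, adipsin, differed by -0.13 ± 0.45. The 36 matrix and fibroblast genes had a median of 0.16, with 5 higher and 2 lower at an unadjusted p under 0.05. The mean level of the skeletal muscle list was 5.84 to 6.48 in the sham animals and 5.38 to 5.72 in BE, while B A stood at 12.6. The mean level of the melanocyte list was 5.11 to 8.06 in sham and 5.30 to 7.58 in BE. ALAS2, the heme synthesis enzyme of red cell precursors, was at 5.67, 6.06, 5.03 and 6.28 in sham and 7.49, 6.33, 7.18 and 7.95 in BE (1.48 ± 0.60, adjusted p = 0.22), without overlap and without a call. Its signal was low in sham, with a mean of 5.76, against 7.24 in BE. Of 40 subunits of oxidative phosphorylation 37 had intervals within 2-fold, with a median of -0.11. Of 23 genes of interferon response and antigen presentation 5 were lower at an unadjusted p under 0.05, with a median of -0.25.

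**Figure D4:**
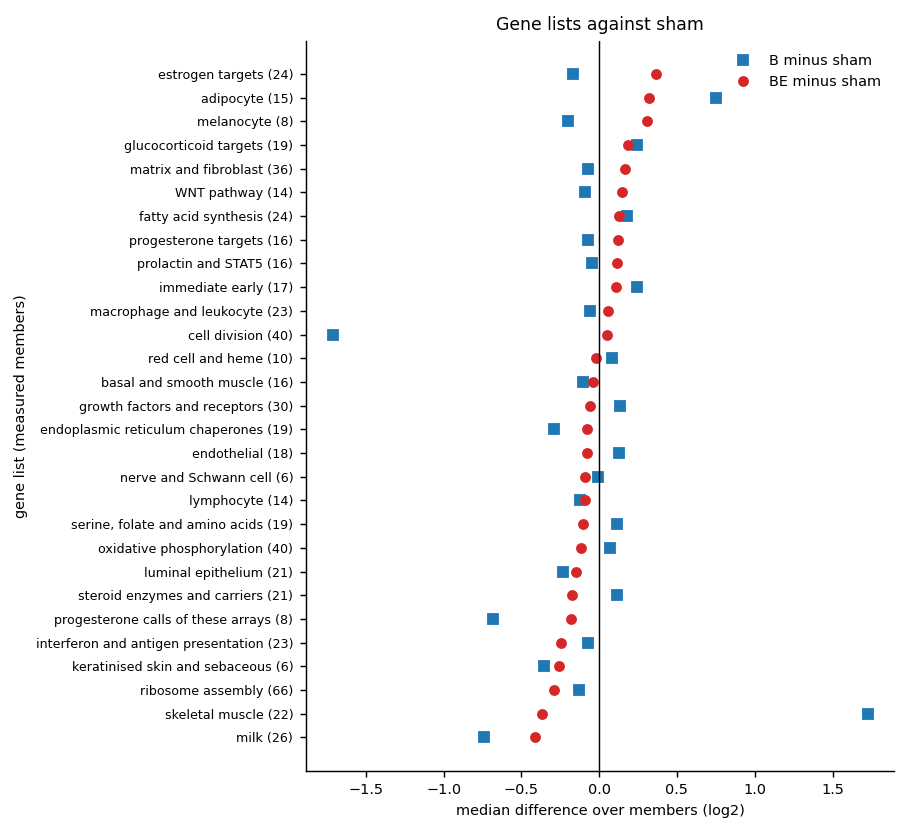
Median difference from sham (log2) over the measured members of each gene list, for BE (circles) and B (squares), with the number of members in parentheses. The cell division median is 0.05 in BE and -1.71 in B, and the high muscle median in B goes with animal B A.

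The levels of these genes in the other estrogen-treated groups were set beside sham and BE. When haloperidol took the place of bromocriptine (HE), SRM stood at 11.47, against 8.59 in BE and 9.99 in sham. CKMT1A was at 9.58 in HE and SHMT1 at 8.52, also above the sham means of 7.83 and 7.46. MCM5 in HE was at 10.26, near its sham mean of 10.58, and RAP1GAP at 7.02, short of its sham mean of 8.01. HE was higher than BE for SRM (2.88 ± 0.33, adjusted p = 2.24e-06), for CKMT1A (3.46 ± 0.40, adjusted p = 2.24e-06) and for SHMT1 (2.07 ± 0.22, adjusted p = 1.45e-06). HE was lower than BE for PAQR7 (-1.89 ± 0.30, adjusted p = 0.000144), GPD2 (-1.70 ± 0.31, adjusted p = 0.000568) and JAK2 (-1.18 ± 0.34, adjusted p = 0.0223), with 7.78% of all genes called higher and 4.12% lower in that comparison. These comparisons share the BE animals with BE against sham, so they are no independent support for it.

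A pair of groups that shares no animal with BE or sham, HEP against BEP, was added after the data were seen. HEP pigs were ovariectomized and received haloperidol, estrogen and progesterone over the last 5 days, after bromocriptine. The pair sets haloperidol against bromocriptine and holds no intact gland, so it cannot test the difference between BE and sham. All groups were fitted together, so each gene has the same SE in both comparisons (0.33 for SRM). Counts of calls in this pair are thus not independent of the calls in BE against sham. Each of the 20 genes lower in BE than in sham had a positive difference in HEP against BEP, with a median of 0.74 against 0.04 over all genes. Of these 20, 5 were called higher by limma, where 1.05% of all genes were. At an unadjusted p under 0.05, 14 were higher, but the share of all genes at that threshold was not taken for this pair. The called genes were SRM (1.94 ± 0.33, adjusted p = 0.00274), LYAR (1.52 ± 0.24), SHMT1 (1.32 ± 0.22), SCLY (1.12 ± 0.23) and CCDC167 (0.85 ± 0.22). MCM5 (1.21 ± 0.32, adjusted p = 0.0561) and CKMT1A (1.51 ± 0.40, adjusted p = 0.0542) did not pass. CD93 (0.07 ± 0.35) and TTYH2 (0.11 ± 0.30) lay closest to 0. Of the 14 genes higher in BE, 13 had a negative difference, with a median of -0.76, and PAQR7 (-1.50 ± 0.30, adjusted p = 0.00961) and CD55 (-1.39 ± 0.33, adjusted p = 0.0301) were called lower, where 0.330% of all genes were. GSTA1 was the exception (0.26 ± 0.29, adjusted p = 0.743).

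**Figure D5:**
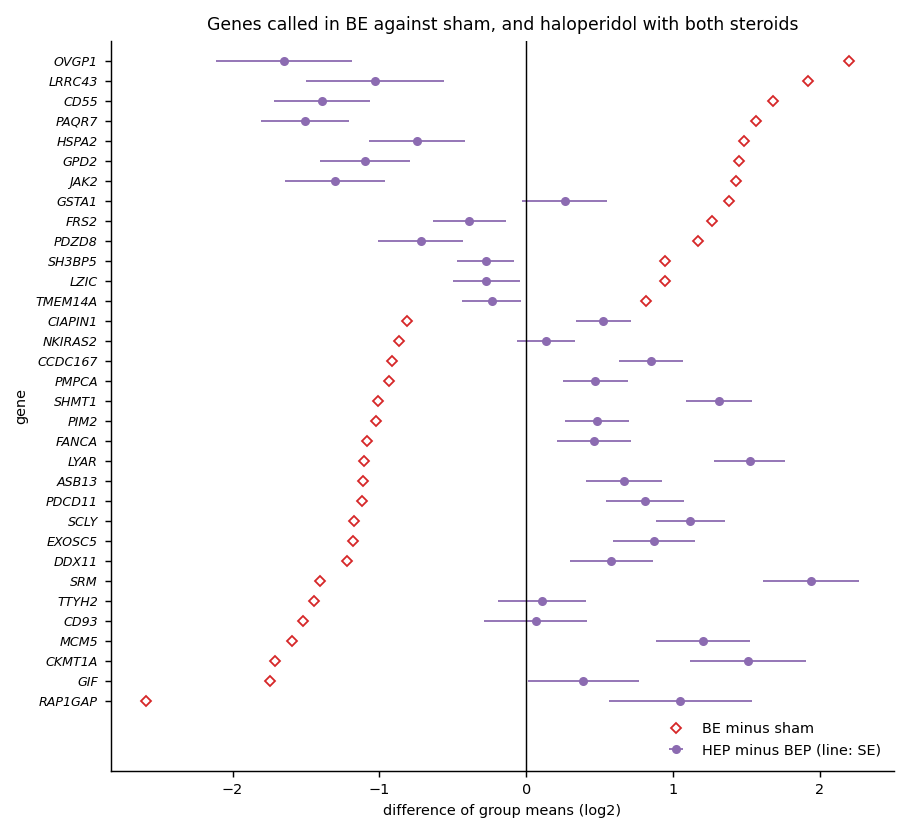
Difference (log2) of the genes called in BE against sham (open diamonds), 1 of the 34 left out, and of the same genes in HEP against BEP (filled circles, line for SE), 2 comparisons with no animal in common. The 20 genes below 0 in BE minus sham lie above 0 in HEP minus BEP, and GSTA1 is the only gene of the upper group that lies above 0 in both.

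Estrogen under haloperidol was read from HE against H, which received haloperidol alone after the same surgery and bromocriptine. This further comparison without BE or sham animals was also added after the data were seen. It too holds no intact gland and has the same SE for each gene, so it cannot test BE against sham. Of the 14 genes higher in BE, 3 rose there, where 13.4% of all genes did, a share not far from theirs: OVGP1 (2.30 ± 0.46, adjusted p = 0.000932), LRRC43 (1.93 ± 0.47, adjusted p = 0.00452) and GSTA1 (1.14 ± 0.29, adjusted p = 0.00606). JAK2 (-0.49 ± 0.34) and FRS2 (-0.58 ± 0.25) did not pass (adjusted p = 0.326 and 0.0934). Of the 20 genes lower in BE, 9 rose with estrogen under haloperidol, FANCA (1.70 ± 0.25) and SRM (1.40 ± 0.33) among them, while RAP1GAP was negative (-1.16 ± 0.49, adjusted p = 0.0907).

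Progesterone beside estrogen moved some of these genes. BEP was lower than BE for LRRC43 (-3.55 ± 0.47, adjusted p = 0.000119), OVGP1 (-2.39 ± 0.46, adjusted p = 0.0135) and GSTA1 (-1.84 ± 0.29, adjusted p = 0.00147), where 0.0786% of all genes were called lower. OVGP1 in BEP was at 9.67, 7.37, 7.74 and 6.86, around its sham mean of 8.10. LRRC43 in BEP was at 5.75, 4.35, 3.80 and 4.05. BEP A overlapped the sham range, and the other BEP animals lay below it. CD55 was at 10.73, 10.65, 10.61 and 10.70 in BEP, and its difference from BE did not pass (-1.07 ± 0.33, adjusted p = 0.589). CD93 was at 10.43, 10.15, 10.82 and 10.28 in BEP, where BE was at 8.94 and sham at 10.46 (1.48 ± 0.35 against BE, adjusted p = 0.107). For MCM5 (0.09 ± 0.32), SRM (-0.03 ± 0.33) and RAP1GAP (0.11 ± 0.49) the BEP and BE means lay close together. These values share the BE animals too.

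Further probe sets of the called genes were examined. Of 11 genes with more than 1 probe set, all 19 further probe sets had the sign of the brightest one, and 5 of them were called. No further probe set of SH3BP5 or ASB13 passed. In 15 other genes a dimmer probe set was called and the brightest was not. TRAF5, a signal adaptor of the TNF receptor family, was called higher on 1 probe set (1.48, adjusted p = 0.0241) and did not pass on its brightest (1.07, adjusted p = 0.0985). GCLC, of glutathione synthesis, was called on 1 of 4 (1.46, adjusted p = 0.0252). For NSL1, a kinetochore protein, the called probe set (-1.48, adjusted p = 0.0107) and the brightest (0.24) differed in sign, so no direction is given. These genes were chosen after their values were seen.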

How the data were processed

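Total RNA from 36 mammary glands was hybridized to 1 array each. Per the submitters' processing notes the deposited values were made with RMA, and no source used here names its version or software. The base of the logarithm is not stated either. The authors' deposited values were read as log2 from their range and near equal quantiles, so every fold rests on that reading. They were used as deposited. Raw intensities and detection calls were not used here, so a low signal was judged against the lower quartile of each array.

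Of 20792 probe sets, 9149 had 1 gene symbol in the platform annotation, 178 had several and 11465 had none. Of the 9149, 9054 had a gene identifier in the reference table (0 renamed). No sequences or positions were used. Precision is set by 4 animals in each group, since arrays carry no depth.

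The 9 group means were fitted together on all 36 arrays with limma 3.58.1 in R 4.3.3 (statmod 1.5.0, 27 residual and 4.16 prior degrees of freedom), and two-sided p-values were adjusted (Benjamini-Hochberg) over the 20792 probe sets of a comparison, separately for each comparison. The fit was also run on simulated data with independent normal noise, of 1 spread per probe set for all arrays. Such data hold no outlying animal or array, so that run does not show how stable the calls are. The comparisons were BE against sham, B against sham, BE against B, HE against BE and BEP against BE, with HEP against BEP and HE against H added after seeing the data. Named genes are the 12 largest differences in each direction among called genes, up to 3 called members of each of 28 lists, 32 of 39 fixed genes that were measured, and the other called genes, which were added; 1 called gene is not reported here. Lists are described by counts and medians, without a set test. The 28 lists and the fixed genes were chosen with earlier results of these data known, and the ribosome assembly list after the calls were seen. The titles carry the letters A to D in every group, and the labels do not say that a letter links animals. Alternatives were a filter on dim probe sets, a second normalization, median centring, a trended robust variance, array weights, the letter as a block, 1 probe set per gene, fewer groups in the fit, BP array A left out and each array left out. Python 3.11.15 with pandas 2.3.3 and matplotlib 3.10.9 drew the figures.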

Additional observations from a re-analysis of the deposited data

Results flagged for a closer look

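In groups of 4 animals, 1 animal was set apart where its gap to the nearest other, as a ratio to the range of the 4, exceeded Dixon's critical value at the 95% level. Chance alone would set apart about 1 in 20 groups. Of 285 sets of a named gene and a group (sham, BE, B, HE and BEP) 9 were set apart, and of 87 sets of a list and a group (sham, BE and B) 6.

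CCNB1 stood at 8.46 in animal BEP A, where the others lay between 9.53 and 9.74 (ratio 0.832). ESR1 stood at 4.79 in animal HE D, where the others lay between 3.72 and 3.83 (ratio 0.896). GPD2 stood at 10.60 in animal BE B, where the others lay between 9.69 and 9.85 (ratio 0.834). HAPLN1 stood at 7.75 in animal sham C, where the others lay between 9.20 and 9.27 (ratio 0.954). JAK2 stood at 5.40 in animal sham C, where the others lay between 6.87 and 6.99 (ratio 0.922). LALBA stood at 10.78 in animal B B, where the others lay between 2.30 and 3.26 (ratio 0.886). LOXL1 stood at 11.30 in animal sham B, where the others lay between 11.72 and 11.78 (ratio 0.879). LOXL1 stood at 11.63 in animal HE D, where the others lay between 11.25 and 11.29 (ratio 0.896). PAQR7 stood at 7.66 in animal HE C, where the others lay between 8.37 and 8.39 (ratio 0.972).

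Mean level of the list progesterone targets stood at 8.63 in animal BE A, where the others lay between 8.89 and 8.92 (ratio 0.879). Mean level of the list growth factors and receptors stood at 8.19 in animal BE C, where the others lay between 7.94 and 7.97 (ratio 0.908). Mean level of the list growth factors and receptors stood at 7.88 in animal B A, where the others lay between 8.09 and 8.12 (ratio 0.899). Mean level of the list skeletal muscle stood at 12.59 in animal B A, where the others lay between 5.45 and 6.35 (ratio 0.874). Mean level of the list interferon and antigen presentation stood at 9.26 in animal B B, where the others lay between 8.58 and 8.69 (ratio 0.838). Mean level of the list glucocorticoid targets stood at 9.42 in animal B A, where the others lay between 9.65 and 9.68 (ratio 0.88).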

How the results depend on the processing

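Counts are of probe sets called unless genes are named. As reported, they were: BE against sham higher 89, BE against sham lower 42, B against sham higher 325, B against sham lower 545, BE against B higher 599, BE against B lower 186, HE against BE higher 1135, HE against BE lower 1049, BEP against BE higher 11, BEP against BE lower 20, HEP against BEP genes lower in BE called higher 5, HE against H genes higher in BE called higher 3, B against sham cell division genes lower 30, BE against B cell division genes higher 28. Leaving out probe sets below the median mean level (dim) gave 39 for BE against sham higher, 153 for B against sham higher, 297 for B against sham lower, 357 for BE against B higher, 91 for BE against B lower, 668 for HE against BE higher, 4 for BEP against BE higher, 0 for BEP against BE lower, 0 for HE against H genes higher in BE called higher, -0.068 for the median of the estrogen targets, -0.070 for the median of the prolactin and STAT5, 0.22 for the median of the skeletal muscle, 0.10 for the median of the steroid enzymes and carriers, -0.19 for the median of the ribosome assembly, 15 for B against sham cell division genes lower, 13 for BE against B cell division genes higher. Array weights gave 1976 for BE against sham higher, 1749 for BE against sham lower, 1534 for B against sham higher, 1175 for B against sham lower, 1121 for BE against B higher, 777 for BE against B lower, 1913 for HE against BE higher, 2080 for HE against BE lower, 57 for BEP against BE higher, 64 for BEP against BE lower, 13 for HEP against BEP genes lower in BE called higher, 5 for HE against H genes higher in BE called higher. Testing 1 probe set per gene gave 19 for BE against sham higher, 26 for BE against sham lower, 65 for B against sham higher, 234 for B against sham lower, 218 for BE against B higher, 66 for BE against B lower, 568 for HE against BE higher, 301 for HE against BE lower, 4 for BEP against BE higher, 5 for BEP against BE lower. Fitting sham, B and BE alone gave 13 for BE against sham higher, 1 for BE against sham lower, 211 for B against sham higher, 121 for BE against B lower. Fitting the compared groups alone gave 49 for BE against sham higher, 24 for BE against sham lower, 44 for B against sham higher, 205 for B against sham lower, 98 for BE against B lower, 10 for BEP against BE lower, 5 for HE against H genes higher in BE called higher. Leaving out BP array A gave 156 for BE against sham higher, 94 for BE against sham lower, 521 for B against sham higher, 317 for BE against B lower, 8 for HEP against BEP genes lower in BE called higher. Leaving out each array in turn gave 7 to 278 for BE against sham higher, 0 to 105 for BE against sham lower, 81 to 672 for B against sham higher, 342 to 724 for B against sham lower, 362 to 611 for BE against B higher, 81 to 227 for BE against B lower, 678 to 1366 for HE against BE higher, 622 to 1323 for HE against BE lower, 3 to 10 for BEP against BE higher, 9 to 21 for BEP against BE lower, 3 to 5 for HEP against BEP genes lower in BE called higher, 0.19 to 0.41 for the median of the estrogen targets, -0.31 to -0.00018 for the median of the lymphocyte, -0.25 to -0.031 for the median of the steroid enzymes and carriers, -0.12 to 0.13 for cell division, 0.12 to 0.56 for adipocyte, -0.38 to -0.073 for interferon, 0.068 to 0.18 for progesterone targets, -0.54 to -0.25 for milk, -0.23 to -0.0079 for endothelial and -0.14 to -0.043 for oxidative phosphorylation, 19 to 28 for B against sham cell division genes lower. Of 29 list medians 24 moved by over 1.5 times or turned, 10 of them in sign. The labels do not say that a letter links animals. Deviations of same-letter BE and sham animals correlated by 0.04, 0.16, 0.34 and 0.22 for A to D, and BE B, C and D correlated best with the sham animal of their own letter, BE A with sham B, a hint from the data and not from the design. With the letter as a replicate block 98 probe sets were called higher and 50 lower, and the 34 genes were still called. Fits with fewer arrays have fewer residual degrees of freedom, and settings with fewer probe sets test fewer. For other shifts the cause was not tested. In single named genes 247 values lost a call and 12 gained one among the alternatives. Without 1 array, the difference turned its sign for 10 of 66 named genes, none of them called, such as CSN1S2 (-0.95 to 1.20), LALBA (-1.50 to 0.25) and AREG (-0.29 to 0.07). Apart from the fits without 1 animal, FRS2, OVGP1 and SCLY were called under every setting that tested them.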
